A study of Mus musculus with 2 samples.

Results

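Ion channel genes were examined in total RNA of the gastrocnemius, a calf muscle, of mice. They were the 148 genes of 34745 in the deposited table whose symbol begins with the letters of a channel family: Kcn for potassium (99 genes), Cacn for calcium (26), Scn for sodium (14) and Clcn for chloride (9). The rule takes genes by name, and it was set with earlier results of these data known. 1 library was from TECRLscko mice, the offspring of Pax7-Cre and TECRLflox/flox mice. Pax7 marks satellite cells, the muscle's resident stem cells, so Cre made from its locus is meant to remove Tecrl there. Whether the fibers also lost Tecrl cannot be seen here. The other library was from TECRLflox/flox mice as the control, with the same floxed allele and no Cre named. The title places the study in muscle repair, and the labels used here give no injury, age, sex, time or number of mice behind a library. Whether a Pax7-Cre mouse without the floxed allele was studied is not given, so Cre itself and the loss of Tecrl cannot be told apart.

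Skeletal muscle contracts when an action potential, carried by voltage-gated sodium channels, runs along the fiber surface and into its transverse tubules. There a voltage-gated calcium channel acts as the voltage sensor that opens the calcium release channel of the sarcoplasmic reticulum. Potassium channels and the muscle chloride channel return the membrane to rest and keep it there. Pore-forming alpha subunits set which ion passes, and auxiliary subunits set how many channels reach the surface and how fast they open and close.

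The family names cover more than voltage-gated pores. The Kcnj genes (15) encode inward rectifiers, the Kcnk genes (14) encode background channels with a pair of pore domains in each chain, and 8 genes encode channels opened by calcium or sodium inside the cell. Of the chloride group, Clcn3 to Clcn7 (5 genes) encode proteins of endosomes and lysosomes. Auxiliary subunits made up 17 of the potassium, 4 of the sodium and 16 of the calcium channel genes. A further 5 entries are RNAs or clones named after a channel gene, and the remaining 143 are protein-coding. The set is therefore described as ion channel genes, by ion and role.

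The TECRLscko library held 16946124 counts and the TECRLflox/flox library 19281017. Mitochondrially encoded and hemoglobin genes took 23.1% of the counts in the TECRLscko library and 17.0% in the TECRLflox/flox library. Tecrl, the targeted gene, was at 4 counts in TECRLscko muscle and 3 counts in TECRLflox/flox muscle, a ratio of 1.59 (95% interval 0.269 to 10.9), so its deletion could not be checked in whole muscle at this depth. All 10 markers of the skeletal muscle fiber were counted, with a summed level of 112900 CPM in the TECRLscko library and 123700 CPM in the TECRLflox/flox library. CPM is the count relative to the scaled size of the library. FPKM, as deposited, divides by the length of the gene and by the library total without that scaling. The unscaled total shifts log2 ratios by -0.07 against CPM, so small differences can change direction between the 2 scales.

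Each group had 1 library, so the spread between mice could not be measured and no test was made. A difference is given as the ratio of CPM, TECRLscko over TECRLflox/flox, with its exact 95% Clopper-Pearson interval. These intervals cover counting error only, and since no molecular identifiers are named, several reads may stem from 1 molecule. Every difference below is between these 2 libraries. Counts are given as deposited, and since the TECRLflox/flox library is the deeper, a lower count in TECRLscko muscle can go with a ratio above 1. The log2 ratio is taken after adding 0.5 to both CPM values, which understates the difference of low genes.

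Of the 148 channel genes, 111 had at least 1 count and 37 had none in either library. A mean of at least 1 CPM over the libraries was reached by 56, against 12559 of all genes, and the 55 others with a count were too low to compare. Those 56 comprised 30 potassium, 12 calcium, 7 sodium and 7 chloride channel genes. Summed over all 148, the channel genes stood at 4741 CPM in the TECRLscko library and 4718 CPM in the TECRLflox/flox library. On the scale per length the sums were 1092 FPKM in the TECRLscko library and 1265 FPKM in the TECRLflox/flox library. The 36 genes averaging 5 CPM or more held 1081 FPKM of this in the TECRLscko library and 1254 FPKM in the TECRLflox/flox library. Sodium and calcium channel subunits of the fiber had the highest levels, as the plot of FPKM by gene shows.

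**Figure D1:**
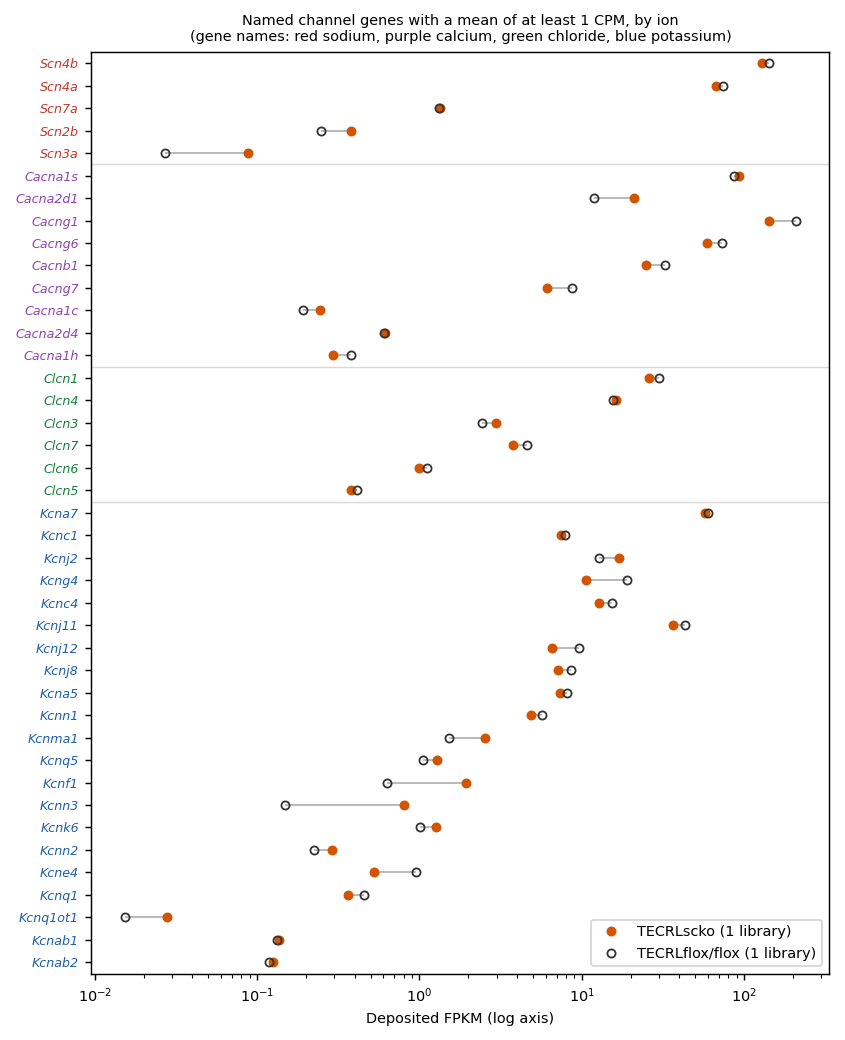
Deposited FPKM (log axis) of 41 channel genes that averaged 1 CPM or more and are named in the text, sodium, calcium, chloride and potassium from top to bottom and by mean CPM within each; filled points are the TECRLscko library, open points the TECRLflox/flox library, 1 library each. Levels run from 0.0280 FPKM for Kcnq1ot1 to 143 FPKM for Cacng1 in the TECRLscko library, and the widest gap between the libraries is that of Kcnn3, at 0.806 FPKM in TECRLscko and 0.148 FPKM in TECRLflox/flox muscle.

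Most of the compared channel genes lay close to the control. Of the 56, 27 were above and 29 below the TECRLflox/flox library, with a median log2 ratio of -0.03, against -0.02 over all 12559 genes. At least 2-fold higher in the TECRLscko library were 3 of 56 (5.36%), where 2.28% of all genes were. They were Kcnn3, Kcnf1 and Scn3a. None of the 56 was at least 2-fold lower, where 0.796% of all genes were. At 1.5-fold, 6 were higher (10.7%, against 9.24% of all genes), which added Cacna2d1, Kcnma1 and Kcnq1ot1, and 2 were lower (3.57%, against 3.88% of all genes), Kcng4 and Kcne4. The remaining 48 lay within 1.5-fold. At both thresholds the shares rest on few genes, and at 1.5-fold they were near those of all genes. The counting interval of the ratio lay above 1 for 15 genes, below 1 for 16 and held 1 for 25 (26.8%, 28.6% and 44.6% of the 56). Of all 12559 genes it lay above 1 for 24.1%, below 1 for 23.8% and held 1 for 52.1%, so these shares too were near the background.

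**Figure D2:**
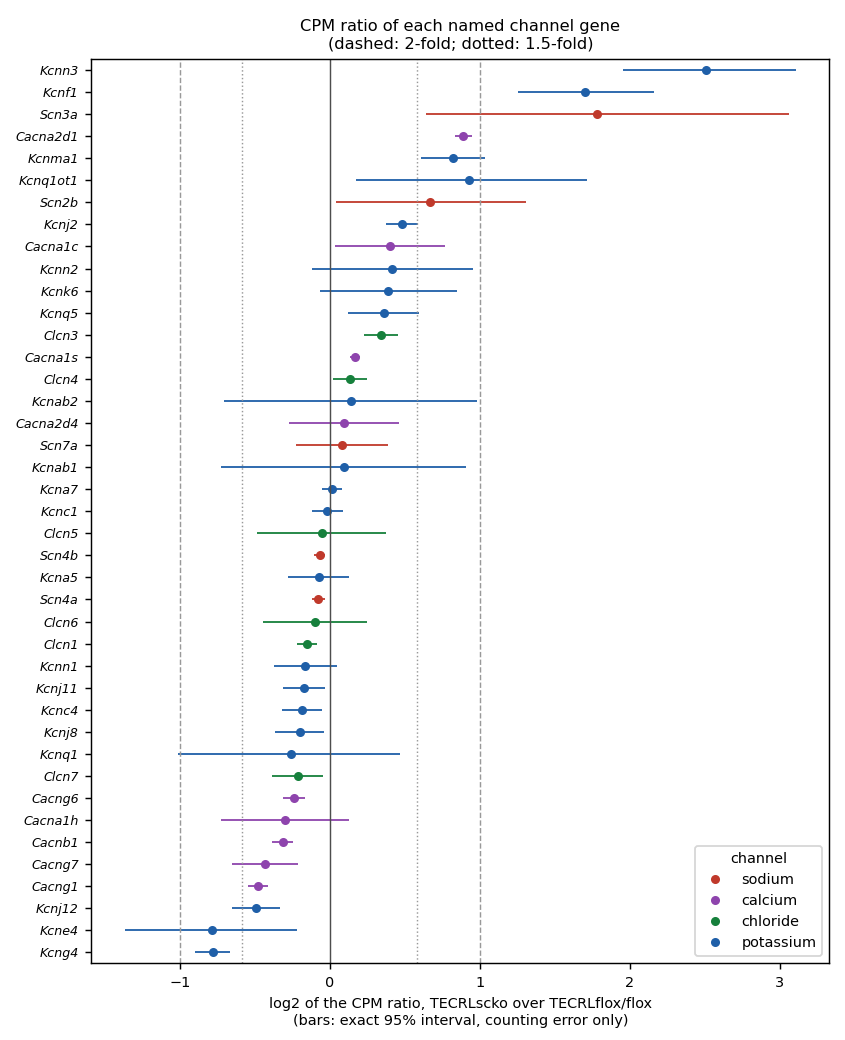
Log2 of the CPM ratio, TECRLscko over TECRLflox/flox, for the same 41 genes, ordered by log2 ratio with 0.5 CPM added; bars are exact 95% intervals and cover counting error only, and dashed and dotted lines mark 2-fold and 1.5-fold. Kcnn3 with a ratio of 5.70 is at the top and Kcng4 with 0.583 at the bottom, and Scn2b, past the dotted line here with 1.59, lies within it once 0.5 CPM is added.

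The genes at both ends of this order are shown first, with the promoter sequence of the 2 highest and the lowest log2 ratio among channel genes averaging 5 CPM or more. Each stretch runs from 250 bases before to 50 bases after the start site in RefSeq, build GRCm38.p6, 5′ to 3′ on the strand of the gene. All 3 start sites coincide with the edge of the deposited gene. Capitals mark every match, on either strand, to 1 of 7 short motifs. The E-box, bound by myogenic factors, was searched as CANNTG, and the core of the element bound by NFAT was searched as GGAAA. The MCAT element of muscle promoters was searched as CATTCC, and the element bound by STAT proteins was searched as TTCNNNGAA. The TATA box was searched as TATAAA, and the MEF2 site and the CArG box by their usual patterns; overlapping matches were counted. The Kcnn3 stretch is chr3:89519914-89520213 on the plus strand, the Kcnf1 stretch chr12:17176839-17177138 on the minus strand, and the Kcng4 stretch chr8:119635631-119635930 on the minus strand.

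Kcnn3: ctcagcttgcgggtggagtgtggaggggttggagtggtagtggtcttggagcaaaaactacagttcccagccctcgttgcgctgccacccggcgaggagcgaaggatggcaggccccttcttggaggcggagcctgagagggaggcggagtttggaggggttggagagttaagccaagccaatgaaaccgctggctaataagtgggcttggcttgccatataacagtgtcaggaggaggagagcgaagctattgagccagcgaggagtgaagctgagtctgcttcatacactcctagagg

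Kcnf1: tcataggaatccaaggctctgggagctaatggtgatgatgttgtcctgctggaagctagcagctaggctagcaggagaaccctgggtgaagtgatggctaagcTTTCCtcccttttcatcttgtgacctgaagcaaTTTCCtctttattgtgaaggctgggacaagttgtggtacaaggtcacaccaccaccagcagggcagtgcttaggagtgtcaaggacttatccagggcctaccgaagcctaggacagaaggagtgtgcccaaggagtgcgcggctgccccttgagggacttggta

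Kcng4: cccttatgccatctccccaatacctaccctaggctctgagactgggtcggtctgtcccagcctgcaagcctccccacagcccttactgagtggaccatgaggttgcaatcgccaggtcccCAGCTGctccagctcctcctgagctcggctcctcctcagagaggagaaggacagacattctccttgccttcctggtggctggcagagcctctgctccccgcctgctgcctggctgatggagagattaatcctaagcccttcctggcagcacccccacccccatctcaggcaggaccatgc

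The Kcnn3 stretch held no match, the Kcnf1 stretch 2 NFAT cores and the Kcng4 stretch 1 E-box. GC content was 57.7% for Kcnn3, 53.0% for Kcnf1 and 61.3% for Kcng4. A promoter entry was available for 108 of the 148 channel genes and for 41 of the 56 compared. An E-box was found in 30 of those 41 (73.2%) and in 72.1% of 27025 promoters of all genes. The MCAT element was in 11 of 41 (26.8%) and in 14.6% of all promoters. The NFAT core was in 21 of 41 (51.2%, against 61.3%), the TATA box in 2 (4.88%, against 14.2%), the STAT element in 3 (7.32%, against 8.47%), the MEF2 site in 1 (2.44%, against 3.26%) and the CArG box in 0 (against 1.57%). A match is a stretch of letters and not a measured binding site.

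Kcnn3 had the highest log2 ratio of the 56 compared genes on the CPM scale. On deposited FPKM with 0.5 added Kcnf1 stood above it, at 1.12 against 1.01 on the log2 scale. Kcnn3 encodes a small-conductance potassium channel opened by calcium, which adult innervated fibers hold at a low level and denervated fibers make again. Kcnn3 (ENSMUSG00000000794, chromosome 3, 89520164 to 89675132, GRCm38) had 153 counts in the TECRLscko library and 32 counts in the TECRLflox/flox library. Those are 9.24 CPM in the TECRLscko library and 1.62 CPM in the TECRLflox/flox library. The ratio was 5.70 (95% interval 3.87 to 8.63) and the log2 ratio 2.20. Kcnn3 was nonetheless a minor channel gene per length, at 0.806 FPKM in the TECRLscko library against 0.148 FPKM in the TECRLflox/flox library. In the TECRLscko library it stood above its relative Kcnn2 (0.288 FPKM), and in the TECRLflox/flox library below it (0.226 FPKM). Kcnn1, another small-conductance channel of the family, was higher in both, at 4.88 FPKM in the TECRLscko library and 5.72 FPKM in the TECRLflox/flox library. Kcnn1 had 335 counts in the TECRLscko library and 447 in the TECRLflox/flox library, a ratio of 0.894 (0.773 to 1.03). Kcnn2 had 65 counts in TECRLscko and 58 in TECRLflox/flox muscle, and Kcnn4, the intermediate-conductance member found in blood and vessel cells, had 10 counts in TECRLscko and 18 in TECRLflox/flox muscle. The intervals of these 3 genes held 1, whereas that of Kcnn3 did not.

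Kcnn3 belongs to a list of genes known from denervated muscle. Of the 14 of its genes that are not channel genes, 13 passed 1 CPM, 6 of them above and 7 below the TECRLflox/flox library, with a median log2 ratio of -0.05. At least 1.5-fold higher were 2 (15.4%, against 9.24% of all genes) and lower 1 (7.69%, against 3.88%), shares that rest on few genes. The higher genes were the synaptic kinase Musk (15.2 CPM in TECRLscko against 9.93 CPM in TECRLflox/flox muscle, log2 ratio 0.59) and the embryonic myosin Myh3 (6.52 CPM in TECRLscko against 3.65 CPM in TECRLflox/flox muscle, 0.76). The lower gene was the myogenic factor Myog, at 6.95 CPM in the TECRLscko library against 10.7 CPM in the TECRLflox/flox library (-0.59). Chrng, the fetal acetylcholine receptor subunit, had 3 counts in each library, which is the floor. The log2 ratios of these 13 genes ran from -0.59 to 0.76, beside 2.20 for Kcnn3. Kcnn3 was named with earlier results of these data known, so its place above them is no separate finding. The part of denervation in the Kcnn3 ratio was not tested.

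Kcnn3 is also made outside muscle fibers, in endothelial cells and neurons among others. Endothelial markers summed to 513 CPM in the TECRLscko library and 527 CPM in the TECRLflox/flox library, with 3 of 8 above the control and none at 0. Neuron markers summed to 7.01 CPM in the TECRLscko library and 7.50 CPM in the TECRLflox/flox library; only 2 of 9 passed 1 CPM, and Nefl and Syt1 had no count in either library. Neither sum was higher in the TECRLscko library, and the part of these cells in the Kcnn3 ratio was not tested. In RNA of whole muscle, more cells of a type and more RNA per cell cannot be told apart.

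Kcnf1 encodes a modifier subunit that passes no current alone and changes the gating of delayed rectifier channels. Kcnf1 (ENSMUSG00000051726, chromosome 12, 17172100 to 17176888) had 158 counts in the TECRLscko library and 58 counts in the TECRLflox/flox library. The ratio was 3.25 (2.39 to 4.47) and the log2 ratio 1.55, and per length Kcnf1 stood at 1.95 FPKM in the TECRLscko library against 0.628 FPKM in the TECRLflox/flox library. Kcng4, another modifier subunit of such channels, lay at the opposite end. Kcng4 (ENSMUSG00000045246, chromosome 8, 119623854 to 119635680) had 877 counts in the TECRLscko library and 1794 counts in the TECRLflox/flox library, a ratio of 0.583 (0.537 to 0.632) and a log2 ratio of -0.77. It was the most abundant modifier gene of the set, at 10.6 FPKM in the TECRLscko library and 19.0 FPKM in the TECRLflox/flox library. Of the modifier genes Kcng1 (10 counts in TECRLscko and 12 in TECRLflox/flox muscle) and Kcns3 (6 counts in TECRLscko and 6 in TECRLflox/flox muscle), and of Kcnv2 (5 counts in TECRLscko and 13 in TECRLflox/flox muscle), too few counts were present to compare.

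**Figure D3:**
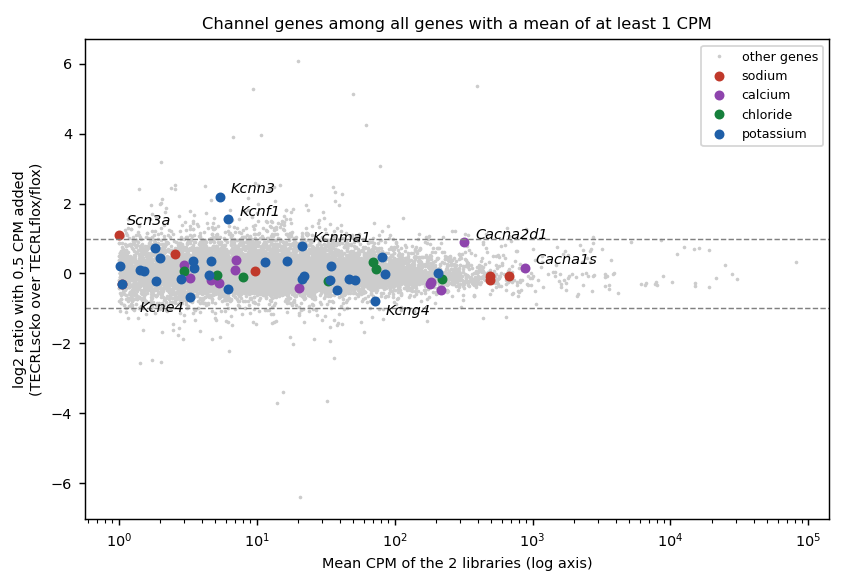
Log2 ratio with 0.5 CPM added (TECRLscko over TECRLflox/flox) against mean CPM (log axis) for all 12559 genes averaging 1 CPM or more; grey points are other genes, colored points the 56 channel genes by ion, and dashed lines mark 2-fold. Kcnn3 (2.20), Kcnf1 (1.55) and Scn3a (1.12) lie above the upper line, no channel gene lies under the lower one, and the abundant Cacna2d1 stands at 0.89.

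The sodium channel of adult fibers differed little. Scn4a, its pore-forming subunit (ENSMUSG00000001027, chromosome 11, 106318592 to 106353288), had 7992 counts in the TECRLscko library and 10047 counts in the TECRLflox/flox library, at 483 CPM in TECRLscko and 509 CPM in TECRLflox/flox muscle. The ratio was 0.948 (0.921 to 0.977). It supplied 97.7% of the FPKM of the 10 sodium alpha genes in the TECRLscko library and 98.1% in the TECRLflox/flox library. Scn4b, a beta subunit that accompanies it, was more abundant per length, at 130 FPKM in the TECRLscko library and 143 FPKM in the TECRLflox/flox library, with a CPM ratio of 0.954 (0.930 to 0.979). Relative to Scn4a on the FPKM scale, Scn4b was 1.94 in the TECRLscko library and 1.93 in the TECRLflox/flox library. At such counts the intervals are narrow, and both lay below 1 at differences under 1.5-fold. Corrected for gene length and GC content, the log2 ratios of Scn4a (0.01) and Scn4b (0.06) were on the other side of 0.

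Other sodium channel genes were low. Scn3a, a channel of embryonic and injured neurons, had 26 counts in the TECRLscko library and 9 counts in the TECRLflox/flox library. Its ratio was 3.44 (1.56 to 8.35) and its log2 ratio 1.12, 0.68 once corrected for length and GC content, and its mean lay just past the filter of 1 CPM. Scn2a1, its neighbor on chromosome 2, had 20 counts in TECRLscko and 15 in TECRLflox/flox muscle and lay under the filter. Scn7a, a sodium-sensing channel of Schwann cells and other non-excitable cells, had 167 counts in the TECRLscko library and 188 counts in the TECRLflox/flox library, a ratio of 1.06 (0.855 to 1.31). Schwann cell markers summed to 149 CPM in the TECRLscko library and 178 CPM in the TECRLflox/flox library, with 2 of the 8 past the filter above the control and none of the 10 at 0; their part in Scn7a and Scn3a was not tested. Scn2b, another beta subunit, had 52 counts in TECRLscko and 39 in TECRLflox/flox muscle, a ratio of 1.59 (1.03 to 2.47). With 0.5 CPM added its log2 ratio was 0.56, just under 1.5-fold. Scn9a and Scn10a, channels of sensory neurons, had no count in either library.

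The calcium channel of the transverse tubule showed unequal differences among its subunits. The voltage sensor Cacna1s (ENSMUSG00000026407, chromosome 1, 136052750 to 136119822) was the most abundant channel gene by CPM, with 15443 counts in the TECRLscko library and 16374 counts in the TECRLflox/flox library. Those are 933 CPM in TECRLscko and 830 CPM in TECRLflox/flox muscle, a ratio of 1.12 (1.10 to 1.15). Cacna1s supplied 98.9% of the FPKM of the 10 alpha1 genes in the TECRLscko library and 98.7% in the TECRLflox/flox library. Cacna2d1, the alpha2-delta subunit that aids the channel's transport and gating (ENSMUSG00000040118, chromosome 5, 15934691 to 16374511), had 6894 counts in the TECRLscko library and 4428 counts in the TECRLflox/flox library. It stood at 416 CPM in TECRLscko and 224 CPM in TECRLflox/flox muscle, a ratio of 1.86 (1.79 to 1.93) and a log2 ratio of 0.89. Of the 8 channel genes past 1.5-fold it had the highest CPM in both libraries, while per length Kcng4 stood above it in the TECRLflox/flox library (19.0 FPKM for Kcng4 and 11.9 FPKM for Cacna2d1). The correction for gene length and GC content brought the log2 ratio to 0.37, under 1.5-fold.

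The beta and gamma subunits stood lower in the TECRLscko library. Cacnb1, the beta subunit that links the channel to calcium release, had 2652 counts in the TECRLscko library and 3932 counts in the TECRLflox/flox library, a ratio of 0.804 (0.765 to 0.845). Cacng1, the gamma subunit that restrains the current, had 3028 counts in TECRLscko and 5026 in TECRLflox/flox muscle, a ratio of 0.718 (0.686 to 0.752). Its relative Cacng6 had 2770 counts in TECRLscko and 3893 in TECRLflox/flox muscle, a ratio of 0.848 (0.808 to 0.891). Cacng7 had 285 counts in TECRLscko and 458 in TECRLflox/flox muscle, a ratio of 0.742 (0.638 to 0.862). It is placed with the gamma genes by name, and these data do not show it to be part of this channel. None of these reached 1.5-fold, and all 3 compared gamma genes had intervals below 1. The correction for gene length and GC content left Cacng1 at -0.22, Cacng7 at -0.19, Cacnb1 at -0.18 and Cacng6 at -0.07 on the log2 scale.

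Set against Cacna1s on the FPKM scale, Cacna2d1 was 0.227 in the TECRLscko library and 0.138 in the TECRLflox/flox library. Cacng1 was 1.54 in TECRLscko and 2.41 in TECRLflox/flox muscle. Cacnb1 was 0.267 in TECRLscko and 0.374 in TECRLflox/flox muscle, and Cacng6 was 0.634 in TECRLscko and 0.841 in TECRLflox/flox muscle. On this scale the message of the alpha2-delta subunit was thus higher relative to the pore, and those of the beta and gamma subunits lower. FPKM does not remove the trends on length and GC content. Before that correction the log2 ratios were 0.89 for Cacna2d1 and 0.17 for Cacna1s, and after it 0.37 and 0.20. Cacna2d1 then stood much closer to the pore, while Cacng1 (-0.22), Cacnb1 (-0.18) and Cacng6 (-0.07) remained below it. Cacng1 lies beside Cacng4 (0 counts in both libraries) and Cacng5 (3 in each), and Cacng6 and Cacng7 beside Cacng8 (0 in both).

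**Figure D4:**
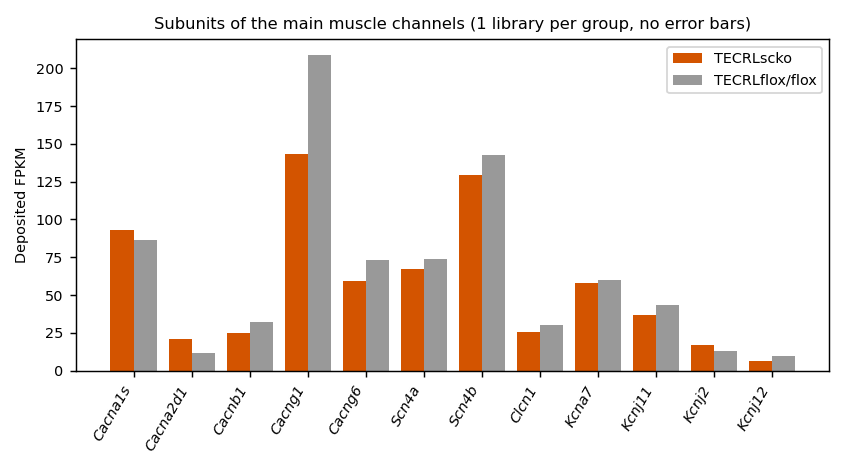
Deposited FPKM of the subunits of the main muscle channels, orange bars for the TECRLscko library and grey bars for the TECRLflox/flox library, 1 library each and therefore without error bars. Cacna1s and Cacna2d1 are higher in the TECRLscko library (93.0 FPKM in TECRLscko and 86.7 FPKM in TECRLflox/flox muscle for Cacna1s, 21.2 FPKM in TECRLscko and 11.9 FPKM in TECRLflox/flox muscle for Cacna2d1), while Cacng1 is lower (143 FPKM in TECRLscko against 209 FPKM in TECRLflox/flox muscle).

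Other calcium channel genes were minor. Cacna1c, the calcium channel pore of heart and smooth muscle, had 133 counts in the TECRLscko library and 120 counts in the TECRLflox/flox library, a ratio of 1.32 (1.03 to 1.71). Cacna1h, a low-voltage-activated pore, had 80 counts in TECRLscko and 117 in TECRLflox/flox muscle, a ratio of 0.815 (0.606 to 1.09), and Cacna2d4 had 120 counts in TECRLscko and 134 in TECRLflox/flox muscle, a ratio of 1.07 (0.828 to 1.38). Of these 3 genes only Cacna1c had an interval above 1, and its log2 ratio of 0.38 was 0.04 once corrected for length and GC content. It overlaps Dcp1b on the opposite strand, which had 108 counts in TECRLscko and 129 in TECRLflox/flox muscle.

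The muscle chloride channel, which carries most of the resting conductance of the fiber, was slightly lower. Clcn1 (ENSMUSG00000029862, chromosome 6, 42286685 to 42315756) had 3464 counts in the TECRLscko library and 4587 counts in the TECRLflox/flox library, 1.11-fold lower (1.06 to 1.16). It supplied 98.8% of the FPKM of the surface chloride channel genes in the TECRLscko library and 99.1% in the TECRLflox/flox library. The exchangers of endosomes and lysosomes lay on both sides of the control. Clcn3 had 1281 counts in TECRLscko and 1206 in TECRLflox/flox muscle, a ratio of 1.27 (1.17 to 1.37), Clcn4 had 1262 counts in TECRLscko and 1371 in TECRLflox/flox muscle, a ratio of 1.10 (1.02 to 1.19), and the lysosomal Clcn7 had 509 counts in TECRLscko and 704 in TECRLflox/flox muscle, a ratio of 0.862 (0.768 to 0.968). Clcn6, with 127 counts in TECRLscko and 162 in TECRLflox/flox muscle, and Clcn5, with 84 counts in TECRLscko and 104 in TECRLflox/flox muscle, had intervals that held 1. The log2 ratio of Clcn3 was 0.34, and -0.23 once corrected for gene length and GC content.

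Of the 13 compared genes for voltage-gated potassium channels and their modifiers, 11 lay within 1.5-fold of the control, and Kcnf1 and Kcng4, described above, did not. Kcna7, a Shaker-type channel of skeletal muscle and heart, led them per length, with 57.8 FPKM in the TECRLscko library and 59.9 FPKM in the TECRLflox/flox library. It had 3421 counts in TECRLscko and 4033 in TECRLflox/flox muscle, a ratio of 1.01 (0.966 to 1.06). The fast channels of the Kcnc family repolarize cells that fire at high rates: Kcnc1 had 1399 counts in TECRLscko and 1686 in TECRLflox/flox muscle, a ratio of 0.989 (0.921 to 1.06), and Kcnc4 had 799 counts in TECRLscko and 1084 in TECRLflox/flox muscle, a ratio of 0.879 (0.801 to 0.964). The log2 ratio of Kcnc4 was -0.18, and 0.03 once corrected for length and GC content. Kcnq5, a channel of the M-current type, had 310 counts in TECRLscko and 288 in TECRLflox/flox muscle, a ratio of 1.28 (1.09 to 1.51). Kcna5, a delayed rectifier of muscle and vessels, had 359 counts in TECRLscko and 450 in TECRLflox/flox muscle, a ratio of 0.951 (0.826 to 1.09), while its neighbors on chromosome 6, Kcna1 (7 counts in TECRLscko and 12 in TECRLflox/flox muscle) and Kcna6 (7 counts in TECRLscko and 15 in TECRLflox/flox muscle), were too low to compare. Of the 13 compared genes of this class 4 had intervals above 1 (30.8%), 3 below 1 (23.1%), and 6 held it (46.2%), near the shares over all genes given above.

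Inward rectifiers set the resting potential, and the pair that carries this current in muscle differed in opposite directions. Kcnj2 (ENSMUSG00000041695, chromosome 11, 111066164 to 111076821) had 1572 counts in the TECRLscko library and 1341 counts in the TECRLflox/flox library, a ratio of 1.40 (1.3 to 1.5). Kcnj12 (ENSMUSG00000042529, chromosome 11, 61022564 to 61071131) had 525 counts in TECRLscko and 880 in TECRLflox/flox muscle, a ratio of 0.711 (0.637 to 0.793). On the FPKM scale Kcnj2 stood at 2.61 times Kcnj12 in the TECRLscko library and 1.33 times in the TECRLflox/flox library. Neither gene reached 1.5-fold alone, and once corrected for length and GC content their log2 ratios of 0.48 (Kcnj2) and -0.49 (Kcnj12) became 0.22 and -0.32.

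Channels that sense ATP pair a Kcnj pore with a sulfonylurea receptor. Kcnj11, the pore of the muscle fiber, had 731 counts in the TECRLscko library and 980 counts in the TECRLflox/flox library, a ratio of 0.889 (0.807 to 0.980), and Kcnj8, the pore of vessel wall cells, had 526 counts in TECRLscko and 721 in TECRLflox/flox muscle, a ratio of 0.870 (0.776 to 0.975). Once corrected for length and GC content, the log2 ratio of Kcnj11 went from -0.17 to 0.10, and that of Kcnj8 from -0.20 to -0.07. Abcc9, the receptor found with both pores, stood at 297 CPM in the TECRLscko library and 249 CPM in the TECRLflox/flox library, a ratio of 1.19 (1.15 to 1.24). Pericyte markers, which include Abcc9, summed to 923 CPM in the TECRLscko library and 747 CPM in the TECRLflox/flox library, with 4 of 7 above the control and none at 0. Without Rgs5 and Abcc9, the most abundant of them, left out after the values were seen, the other 5 summed to 125 CPM in the TECRLscko library and 134 CPM in the TECRLflox/flox library. The direction of the sum thus rests on that pair, and the part of pericytes in the Kcnj8 ratio was not tested.

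Kcnma1 encodes the large-conductance potassium channel opened by calcium and voltage, abundant in smooth muscle. Kcnma1 (ENSMUSG00000063142, chromosome 14, 23289431 to 24004859) had 450 counts in the TECRLscko library and 304 counts in the TECRLflox/flox library, a ratio of 1.77 (1.52 to 2.05) and a log2 ratio of 0.80. The correction for length and GC content left 0.62, still past 1.5-fold. It overlaps A830039N20Rik, which had 122 counts in TECRLscko and 92 in TECRLflox/flox muscle, and the 2 models summed gave a ratio of 1.72 (1.51 to 1.96). Its beta subunit of smooth muscle, Kcnmb1, had 19 counts in TECRLscko and 16 in TECRLflox/flox muscle, a ratio of 1.42 (0.690 to 2.94). Smooth muscle markers summed to 274 CPM in the TECRLscko library and 291 CPM in the TECRLflox/flox library, with 5 of 7 above the control, none at 0, none past 1.5-fold and a median log2 ratio of 0.16. Without Smtn, the most abundant of them, left out after the values were seen, the other 6 summed to 158 CPM in the TECRLscko library and 151 CPM in the TECRLflox/flox library. The direction of the sum thus rests on that marker, and the part of smooth muscle in the Kcnma1 ratio was not tested.

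Auxiliary and background potassium channel genes were low. Kcne4, a small membrane protein that inhibits several voltage-gated potassium channels, had 40 counts in the TECRLscko library and 82 counts in the TECRLflox/flox library. The ratio was 0.582 (0.388 to 0.859) and the log2 ratio -0.67, and 1.5-fold lies within this interval. The cytoplasmic beta subunits Kcnab1 (26 counts in TECRLscko and 29 in TECRLflox/flox muscle, ratio 1.07, 0.605 to 1.88) and Kcnab2 (25 counts in TECRLscko and 27 in TECRLflox/flox muscle, 1.10, 0.615 to 1.98) could not be told from 1. Kcnk6, the most abundant background channel gene, had 88 counts in TECRLscko and 80 in TECRLflox/flox muscle, and all 3 compared genes of its class had intervals that held 1. Kcnq1ot1, an RNA antisense to the potassium channel gene Kcnq1, had 40 counts in the TECRLscko library and 25 counts in the TECRLflox/flox library, a ratio of 1.91 (1.13 to 3.28). Kcnq1 had 28 counts in TECRLscko and 40 in TECRLflox/flox muscle, and because the strand setting is not given, reads of this pair cannot be told apart; their sum gave a ratio of 1.25 (0.875 to 1.78).

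Among the 55 channel genes with a count but under 1 CPM, a pair had intervals above 1. The share over all genes under 1 CPM is not given here, so this count is not read as a difference. Kcnk1 had 13 counts in the TECRLscko library and 4 counts in the TECRLflox/flox library, a ratio of 3.88 (1.20 to 16.3). Kcng2 had 11 counts in TECRLscko and 2 in TECRLflox/flox muscle, a ratio of 6.56 (1.43 to 60.9). Both intervals are wide, and these genes were picked for their values. A count of 0 in a library allows up to 3 counts, which is 0.181 CPM in the TECRLscko library and 0.152 CPM in the TECRLflox/flox library. The 37 genes at 0 in both libraries included Kcna3 and Kcna4, Kcnj5 and Kcnj6, and Cacng2 and Cacng3.

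Proteins that work with these channels were examined as a list of 50 genes of excitability and excitation-contraction coupling. Of these 44 passed 1 CPM, 20 above and 24 below the TECRLflox/flox library, with a median log2 ratio of -0.04. At least 1.5-fold higher were 5 (11.4%) and lower 1 (2.27%), near the 9.24% and 3.88% of all genes, so the counts do not set this list apart. The calcium pump of slow fibers Atp2a2 stood at 565 CPM in the TECRLscko library and 312 CPM in the TECRLflox/flox library (log2 ratio 0.86), the slow calsequestrin Casq2 at 71.8 CPM in TECRLscko and 44.6 CPM in TECRLflox/flox muscle (0.68), while the store-operated calcium channel Orai1 had 670 counts in TECRLscko and 494 in TECRLflox/flox muscle (0.68). The other two were Musk, given above, and Dpp6, a partner of the Kcnd channels, which had 35 counts in TECRLscko and 16 in TECRLflox/flox muscle, a ratio of 2.61 (1.41 to 5.05). Atp1b2, a sodium pump subunit, was lower, at 297 CPM in the TECRLscko library against 462 CPM in the TECRLflox/flox library (-0.64). Ryr1, the release channel that Cacna1s opens, stood at 2891 CPM in the TECRLscko library and 2321 CPM in the TECRLflox/flox library, a ratio of 1.25 (1.23 to 1.26), and Stac3, which ties the channel complex together, at 273 CPM in TECRLscko and 362 CPM in TECRLflox/flox muscle, a ratio of 0.756 (0.728 to 0.784).

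Atp2a2 and Casq2 are also genes of slow fibers. Every one of 14 such genes was above the TECRLflox/flox library, with a sum of 6565 CPM in the TECRLscko library and 4361 CPM in the TECRLflox/flox library, and 2 of 15 fast fiber genes were, with a sum of 132700 CPM in the TECRLscko library and 148900 CPM in the TECRLflox/flox library. Their medians were 0.79 for slow and -0.28 for fast fiber genes on the log2 scale, beside -0.03 for the 56 channel genes. Among markers of other cells, those of fat summed to 302 CPM in the TECRLscko library and 362 CPM in the TECRLflox/flox library, with 0 of the 7 past the filter above the control. Without Fabp4, the most abundant of them, left out after the values were seen, the others summed to 22.9 CPM in TECRLscko and 46 CPM in TECRLflox/flox muscle. Tendon markers summed to 147 CPM in TECRLscko and 108 CPM in TECRLflox/flox muscle, with 6 of 6 above. Which part fiber type or these cells had in the channel ratios was not tested.

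**Figure D5:**
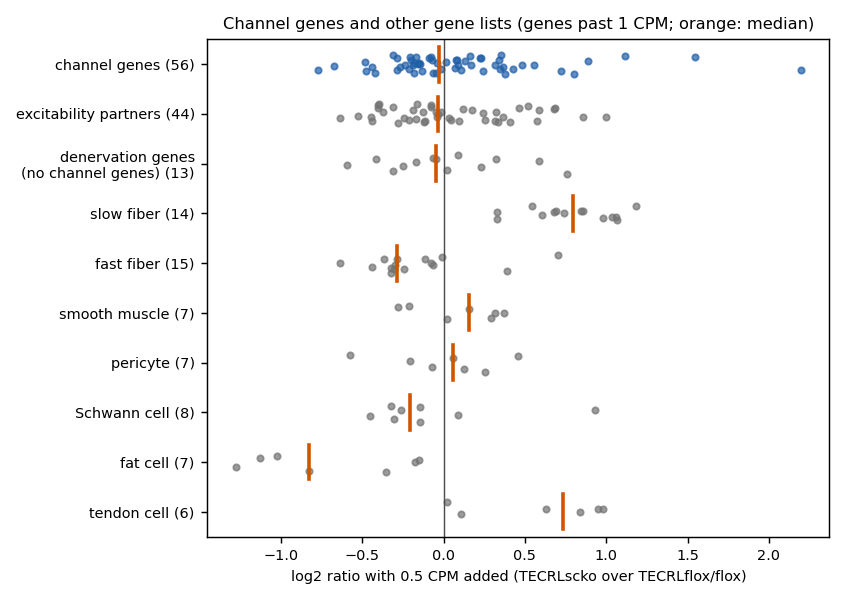
Log2 ratio with 0.5 CPM added (TECRLscko over TECRLflox/flox) of each gene past 1 CPM in 10 lists, with the number of genes in brackets and the median as an orange bar. The channel genes center on -0.03 with Kcnn3 and Kcnf1 far to the right, the slow fiber genes all lie to the right of 0 (median 0.79), and the fast fiber genes mostly to the left (-0.28).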

How the data were processed

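Per the labels' protocols, total RNA was extracted with a commercial kit, and libraries made with a VAHTS Universal V6 kit were run on an Illumina NovaSeq. The submitters' processing notes name CASAVA, HISAT2 2.0.4, StringTie 1.3.0 and build GRCm38, without their roles. Not given in the sources used here are the counter and its strandedness, the annotation release and any read filters. Each gene and library has, per the file headers, a deposited raw count and a deposited FPKM. The deposited FPKM values equal the count divided by a gene length and the library total: for 100% of 16041 genes both libraries imply the same length to within 1%.

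TMM scaling of the counts (in R 4.3.3 with edgeR 4.0.16) gave a factor of 0.977 for the TECRLscko and 1.02 for the TECRLflox/flox library. Comparisons were limited to genes averaging 1 CPM or more, with 0.5 CPM added for log2 ratios; "2-fold" and "1.5-fold" refer to that scale. Intervals are exact and conditional on the summed counts (scipy 1.17.1). Gene classes come from GENCODE M21 (all 148 symbols matched by identifier, 105 with identical coordinates); coordinates are as deposited. Promoters are from RefSeq, and 27025 genes with 1 promoter each were the background. Trends of the log2 ratio on length (implied by the deposited values) and on GC content of the longest annotated transcript were removed by lowess, span 0.3 (statsmodels 0.14.6). The median length was 7.19 kb for the 56 channel genes and 5.42 kb for all compared genes. Of the 56, 17 overlap another counted gene model. Neighbors are channel genes within 150 kb. The steps were tested on simulated counts.

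The members and lists were chosen with earlier results of these data known. Named were Kcnn3, channel genes averaging 5 CPM or more or at least 1.5-fold either way, a core set of muscle excitability genes, list genes at least 1.5-fold either way, and abundant list genes; a few of these are not reported here, and figures with gene labels show only genes named in the text. Other names were chosen after their values were seen. Scn2a1, missed by the naming pattern for roles, was put with the sodium alpha genes afterwards. Alternatives were total counts, DESeq2 1.42.0 size factors, totals without mitochondrial and hemoglobin genes, pseudocounts of 0.1 and 1, no filter or 5 CPM, FPKM, the trends above, and genes without overlaps.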

Additional observations from a re-analysis of the deposited data

How the results depend on the processing

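The 2-fold and 1.5-fold counts and the median of the compared channel genes were recomputed under 11 alternatives. On deposited FPKM, with 0.5 added and a mean of at least 0.5, which keeps 38 channel genes and drops low ones, 1 gene was at least 2-fold higher (Kcnf1), 3 at least 1.5-fold higher (Cacna2d1, Kcnf1 and Kcnma1) and 1 at least 1.5-fold lower (Kcng4), with a median of -0.14. Kcnn3, under that FPKM minimum, stood at a log2 ratio of 1.01 there and at up to 2.44 elsewhere. The 2-fold higher genes were 2, without Scn3a, with 1 CPM added, past a filter of 5 CPM and after either correction. At least 1.5-fold higher were 4 after the length and GC correction, without Cacna2d1 and Kcnq1ot1, 5 after the length correction, and 4 of the 39 without overlapping gene models, where Kcnma1 and Kcnq1ot1 drop out. The count rose to 7, with Scn2b, when 0.1 CPM was added and on totals without mitochondrial and hemoglobin genes. Without a filter 8 of 111 were at least 1.5-fold higher, with Kcng2 and Kcnk1, and 3 lower, with Kcnrg. With a mean of at least 5 CPM, 4 genes were at least 1.5-fold higher and 1 was at least 1.5-fold lower (Kcng4), since Kcne4 falls under that minimum. Kcnq1ot1 was at -0.036 after the length correction and -0.19 after the length and GC correction; the cause was not tested. The length and GC correction changed the sign of 12 of the 41 genes recomputed singly, and the length correction of 7. Against TMM, totals shifted log2 ratios by -0.07 and totals without mitochondrial and hemoglobin genes by 0.04, and each changed the sign of 1 of these genes, Kcna7 and Kcnc1. Leaving out a replicate was not possible with 1 library per group. No paired analysis was possible because a group is a single library without a test. Depth limits Scn3a, Kcne4 and the genes under 1 CPM.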
